A study of Bos taurus with 16 samples.

Results

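The genes described here are 32 cytochromes P450, other drug-metabolizing enzymes and ABC transporters of the Holstein calf, measured in liver and in skeletal muscle. They were taken from the 27607 Ensembl genes of the deposited count table as those that the supplementary gene tables of the study pair with a symbol beginning CYP and a number, UGT, GST, SULT, ALDH, ADH and a number, or ABCA, ABCB, ABCC, ABCD or ABCG, with GSTT4 left out. A symbol is paired with 4181 of the IDs, so members of these families without a paired symbol are not analysed here, and no gene of the ADH or ABCD families was among those found. There were 17 enzymes (9 P450, 2 aldehyde dehydrogenases, 3 glutathione transferases, 2 sulfotransferases and 1 UDP-glycosyltransferase) and 15 transporters (7 ABCA, 1 ABCB, 6 ABCC and 1 ABCG).

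The liver clears drugs, plant compounds, hormones and bile products in successive steps. Phase I enzymes, the P450 and aldehyde dehydrogenases among them, oxidize the substrate, phase II enzymes such as sulfotransferases, glutathione transferases and UDP-glycosyltransferases attach a polar group, and ABC transporters use ATP to move conjugates, lipids or peptides across membranes. Several members act on the body's own molecules instead: P450 enzymes make bile acids and steroids and break down retinoic acid, and a pair of ABCC proteins are not pumps but regulatory subunits of ATP-sensitive potassium channels.

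The study asked whether calves from in vitro-produced (IVP) embryos differ from calves from multiple ovulation and embryo transfer (MOET) in organs of energy metabolism. Libraries of polyadenylated RNA without strand information were made from the right liver lobe and the left semitendinosus muscle of 8 male Holstein calves, 4 IVP and 4 MOET, 1 library per calf and organ. Both groups were born after the transfer of an embryo to a recipient. IVP calves 3208 and 3209 had the same dam and sire as MOET calves 3217 and 3218, IVP calves 5833 and 5841 had that dam and another sire, and MOET calves 5932 and 3213 had another dam and each its own sire. The groups therefore differ in parents as well as in embryo origin. MOET calf 3213 was 144 days old, and the other 7 calves were 98 to 104 days old.

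Deposited counts summed to between 22758137 and 24667728 in the liver libraries and to between 23677247 and 25626474 in the muscle libraries. The authors had adjusted them for age, and the counts of calf 3213 lay nearer to the mean of the other 3 MOET calves than counting noise allows (median log2 deviation 0.0219 for its liver and 0.0136 for its muscle, where noise alone gives 0.0384 and 0.0404). Means and SDs below therefore cover 4 IVP calves and 3 MOET calves, and the value of calf 3213 is given beside them. In the test with age as a covariate the leverage of this calf was 0.988, so its library mostly sets the age term. Levels are counts per 1000000 counts (CPM) after TMM normalization within each organ and are not corrected for gene length, so they compare calves for 1 gene in 1 organ but not 1 gene with another. Where organs are compared, CPM are scaled over the 16 libraries in 1 step, as in the test between organs. On that scale the organs carried their labels' markers: the 4 named genes of the muscle fibre (ACTA1, MYH2, MYH7, TNNT3) summed to between 131992 and 178730 CPM in muscle and to at most 0.547 CPM in liver, and APOA1 with TTR, made by hepatocytes, summed to between 3120 and 7163 CPM in liver and to at most 46.8 CPM in muscle.

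Most of these genes were higher in liver than in muscle. Of the 31 that had enough counts to be compared between the organs within calves, 24 were higher in liver, 3 were higher in muscle and 4 did not pass the test (edgeR's quasi-likelihood test with the calf as a block, Benjamini-Hochberg adjusted p, here FDR, under 0.05), where 80.5% of all 15237 genes tested passed. The share lower in muscle over all genes was 42.5%, and the share higher in muscle was 38%. A difference of at least 10-fold in favour of liver was found in 16 members, against 11.9% of all genes, and 1 in favour of muscle, against 6.83%. Of the 31, 13 passed the filter on low counts through liver only and 1 (ABCC8) through muscle only, so the filter itself favours a difference between the organs in these genes. They make up 11 of the 16 members and the 1 in favour of muscle. Among the 17 members that passed in both organs, 13 were higher in liver, against 36.7% of the 12007 genes that did so, 2 were higher in muscle, against 41.2%, and 2 did not pass the test, and 5 were at least 10-fold higher in liver, against 4.69%. The naming leans to liver as well. A symbol came through the study's tables of liver expression, or of liver methylation and expression combined, for 21 of the 32 members. It came through the combined table of muscle for 5. The members, these 17 included, are therefore not a like sample to set beside all genes. Summed over the members, a liver library held between 2269 and 2807 CPM and a muscle library between 193 and 270 CPM.

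Several members had no or next to no counts in muscle. The drug-oxidizing P450 CYP2C18 (79.6 to 202 CPM in the 8 livers) and CYP2C87 (2.96 to 12.8 CPM) had 0 counts in all 8 muscle libraries, as did CYP7A1 (12.1 to 216 CPM), the rate-limiting enzyme of bile acid synthesis. With a floor of 3 counts per library, or 0.151 CPM, in place of 0, mean liver levels were at least 952-fold, 37-fold and 502-fold higher. UGT3A2, which attaches sugars other than glucuronic acid, and CYP26A1, which breaks down retinoic acid, had 1 count each over all muscle libraries, and ABCC2, the pump that exports conjugates into bile, had 4. The liver-type glutathione transferase GSTA2 was 219 to 454 CPM in liver and 0.047 to 0.405 CPM in muscle, and SULT1B1, which sulfates thyroid hormone and phenols, 12.9 to 27.6 CPM and 0.0939 to 0.363 CPM. Neither gene's values overlap between the organs. CYP11A1, the cholesterol side-chain cleavage enzyme that opens steroid synthesis, lay between 33.9 and 43.1 CPM over the 8 livers and between 0 and 0.764 CPM in muscle, where it did not pass the filter and 3 of the 4 IVP calves had 0 counts.

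CYP2D14 and SULT1A1 kept a measurable level in muscle. CYP2D14, a P450 of the drug-oxidizing CYP2D group, was 63.0-fold lower there, and SULT1A1, the phenol sulfotransferase, 19.4-fold lower. GSTK1, the kappa-class transferase of mitochondria and peroxisomes, was 5.17-fold lower. CYP20A1, a P450 with no settled substrate, showed the smallest called difference of the P450, 2.24-fold, and CYP4V2, a fatty acid hydroxylase, was 42.9-fold lower in muscle. The aldehyde dehydrogenases ALDH5A1, which ends the breakdown of the transmitter GABA, and ALDH6A1, which acts in valine breakdown, were 5.34-fold and 9.74-fold lower in muscle.

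The 3 members higher in muscle were transporters. ABCC8 and ABCC9, the sulfonylurea receptors that regulate ATP-sensitive potassium channels, were 27.3-fold and 4.86-fold higher in muscle, and ABCB9, a peptide transporter of the lysosome, was 4.49-fold higher. ABCC8 lay between 0 and 0.478 CPM in liver and between 4.59 and 8.76 CPM in muscle. The values of ABCC8, ABCC9 and ABCB9 do not overlap between the organs. The members that did not pass the test were ABCC10 (log2 difference 0.09, SE 0.12, FDR = 0.519), ABCG1 (-0.55, SE 0.48, FDR = 0.306), GSTO1 (-0.39, SE 0.70, FDR = 0.619) and CYP21 (0.73, SE 0.54, FDR = 0.231). ABCA12, a lipid transporter of skin, had 0 counts in all 16 libraries.

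**Figure D1:**
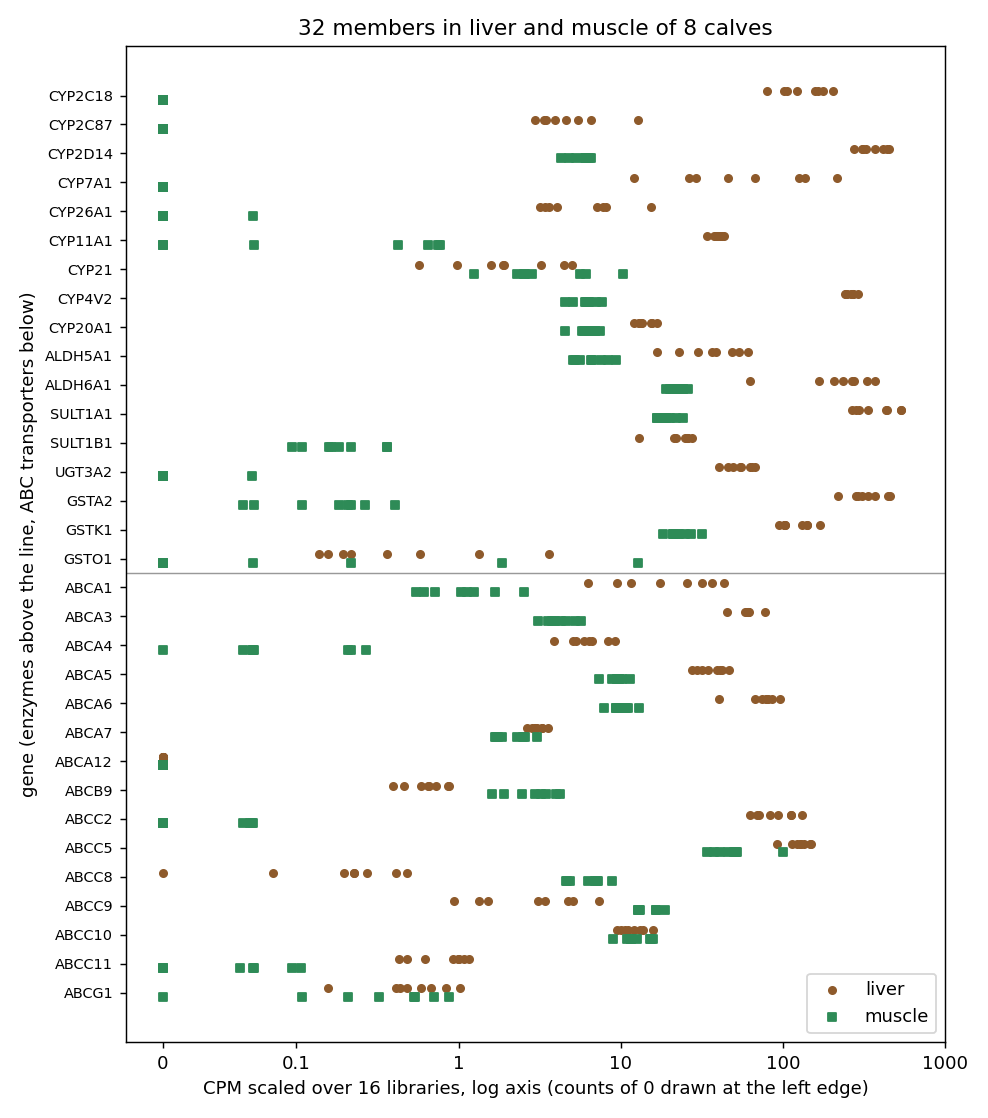
CPM, scaled over the 16 libraries, of each of the 32 members on a log axis, with 1 point per calf for liver (circles) and muscle (squares); counts of 0 are drawn at the left edge. Liver points lie to the right of muscle points for most members, and ABCB9, ABCC8 and ABCC9 lie the other way round.

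In liver, 30 members could be compared between IVP and MOET calves. No member passed an FDR of 0.05 in edgeR's quasi-likelihood test with age, where 5 of 14290 genes did (0.035%). At an unadjusted p under 0.05 there were 5 members higher in IVP calves, against 14.8% of all genes, and 10 lower, against 15% of all genes. In 5 members all 4 IVP calves lay above the 3 MOET calves (CYP2C18, CYP2D14, CYP26A1, SULT1A1, GSTK1), as in 16.3% of all genes. In 10 members all IVP calves lay below (CYP7A1, ALDH5A1, ALDH6A1, SULT1B1, GSTO1, ABCA1, ABCA5, ABCC2, ABCC9, ABCC10), as in 16.7% of all genes. The set is not an independent sample, because 21 of the 32 members, 20 of the 30 compared here, have a symbol through the study's own gene tables for liver expression (15) or for liver methylation and expression combined (6), which were selected on these libraries. All 15 members without overlap are among these 20, and of the other 10, 3 had a positive and 7 a negative log2 fold change with 0 at an unadjusted p under 0.05.

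The call depended on the fit. DESeq2 on the same counts with age called 12 members, where it called 1588 of 14290 genes. The edgeR fit without the age term called 14 members, where it called 2998 genes. CYP7A1, ABCA1, ABCC9, CYP26A1, CYP2C18 and SULT1A1 were among them in both. Without IVP calf 5841 edgeR called 12 members and 1219 of all genes, without MOET calf 3213 14 and 2187, and without IVP calf 3208 3 and 101. With any of the other 5 calves left out it called 0 members. Without calf 3213 the age term rests on calves of 98 to 104 days. Leaving out calf 3213 together with the age term, edgeR called 0 members and 5 of 14416 genes. Direction was steadier: over the 15 alternatives at most 3 of the 30 members changed sign.

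**Figure D2:**
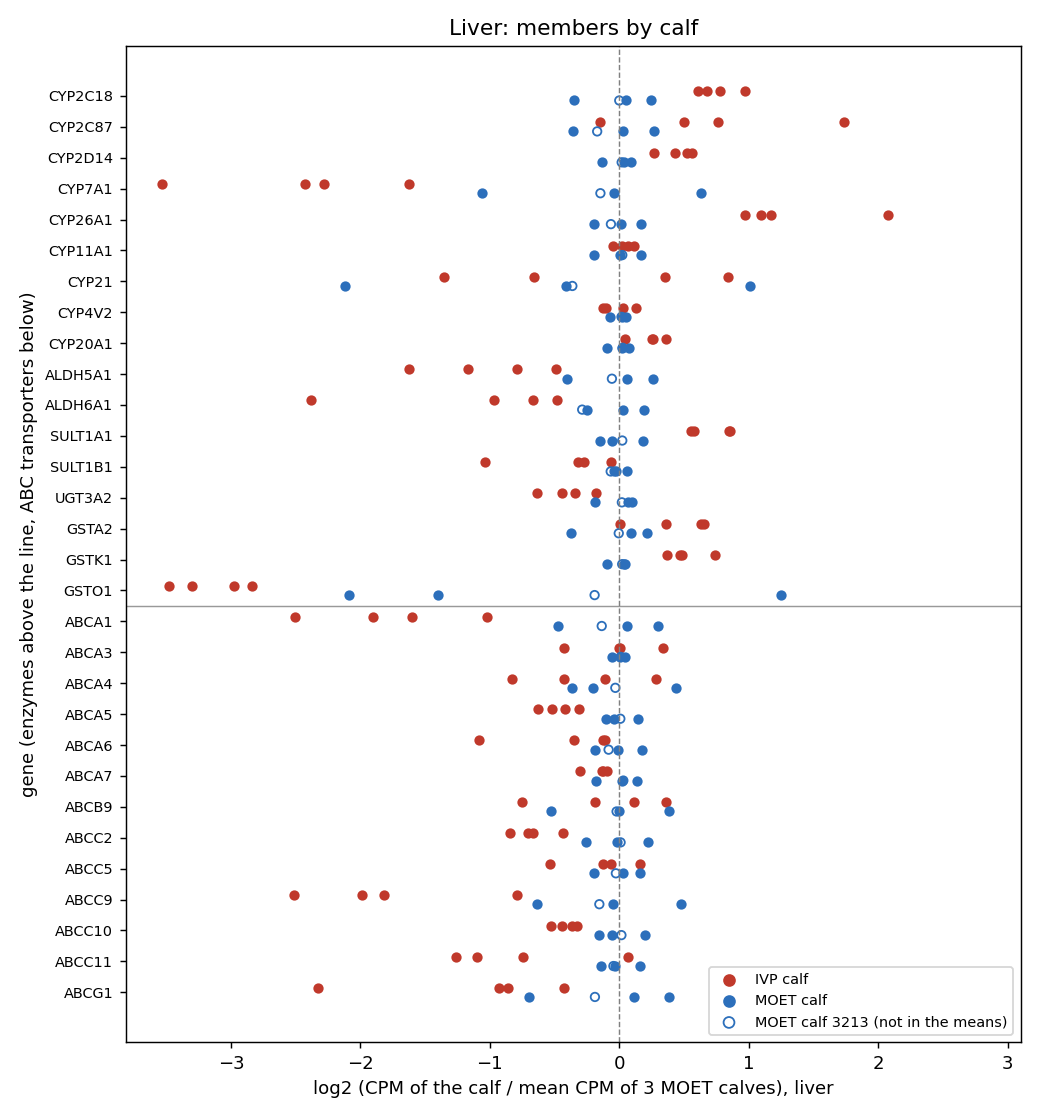
Liver CPM of each calf for the 30 members compared, as log2 of the ratio to the mean of MOET calves 3217, 3218 and 5932; open circles are MOET calf 3213. The IVP points of CYP7A1, GSTO1, ABCA1 and ABCC9 lie farthest to the left and those of CYP26A1 and CYP2C18 to the right of all MOET points.

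Among the P450 enzymes, the 3 named ones that oxidize drugs were higher and the bile acid enzyme was lower in the livers of IVP calves. The groups did not overlap in 3 of these 4 genes, and none passed the FDR. All 4 have their symbol through the study's table of liver expression, which was selected on these libraries. Drug-oxidizing P450 without a paired symbol were not analysed, so the contrast is not one of enzyme classes. In the values that follow, IVP calves are in the order 3208, 3209, 5833 and 5841 and MOET calves in the order 3217, 3218 and 5932, with calf 3213 last. CYP7A1 stood at 15.3, 32.9, 57.5 and 36.5 CPM in IVP calves and at 172, 274 and 85 CPM in MOET calves, with 160 CPM in calf 3213. The highest IVP calf, 5833, was below the lowest MOET calf, 5932. The means were 35.5 ± 17.3 CPM (SD, n = 4) and 177 ± 94.5 CPM (SD, n = 3), and the log2 fold change was -2.33 (SE 0.47, FDR = 0.125). In the 4 calves with the same parents, the IVP calves 3208 and 3209 and the MOET calves 3217 and 3218, the log2 fold change of CYP7A1 was -3.21 and its FDR 0.0393 without an age term. CYP7A1 was the single member called there, where 19 of 14390 genes were called.

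CYP2C18 stood at 255, 208, 223 and 198 CPM in IVP livers and at 154, 135 and 102 CPM in MOET livers, with 130 CPM in calf 3213. CYP2D14 stood at 518, 463, 552 and 568 CPM against 409, 394 and 351 CPM, with 390 CPM in calf 3213. Both genes were higher in every IVP calf, by log2 fold changes of 0.77 (SE 0.17, FDR = 0.125) and 0.44 (SE 0.13, FDR = 0.126). CYP2C87 was 8.23, 6.86, 16.1 and 4.37 CPM against 5.82, 4.94 and 3.78 CPM, and here IVP calf 5841 lay within the MOET range (log2 fold change 0.90, SE 0.40, FDR = 0.170).

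CYP26A1 was higher in all IVP livers, at 19.3, 9.81, 10.3 and 8.99 CPM against 3.99, 5.14 and 4.62 CPM, with 4.38 CPM in calf 3213. The means were 12.1 ± 4.83 CPM (SD, n = 4) and 4.58 ± 0.577 CPM (SD, n = 3), with a log2 fold change of 1.42 (SE 0.29, FDR = 0.125). IVP calf 3208 was far above the other IVP calves, and without it the log2 fold change was 1.09 with an FDR of 0.0430. The other P450 enzymes with endogenous substrates overlapped between the groups. CYP11A1 (50.4 ± 2.42 against 49.0 ± 6.07 CPM, n = 4 and 3) and CYP4V2 (328 ± 27.9 against 331 ± 15 CPM) had log2 fold changes of 0.04 (SE 0.12) and -0.01 (SE 0.12), while CYP20A1 had 0.22 (SE 0.13, FDR = 0.245) and CYP21 0.00 (SE 0.69, FDR = 0.997).

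**Figure D3:**
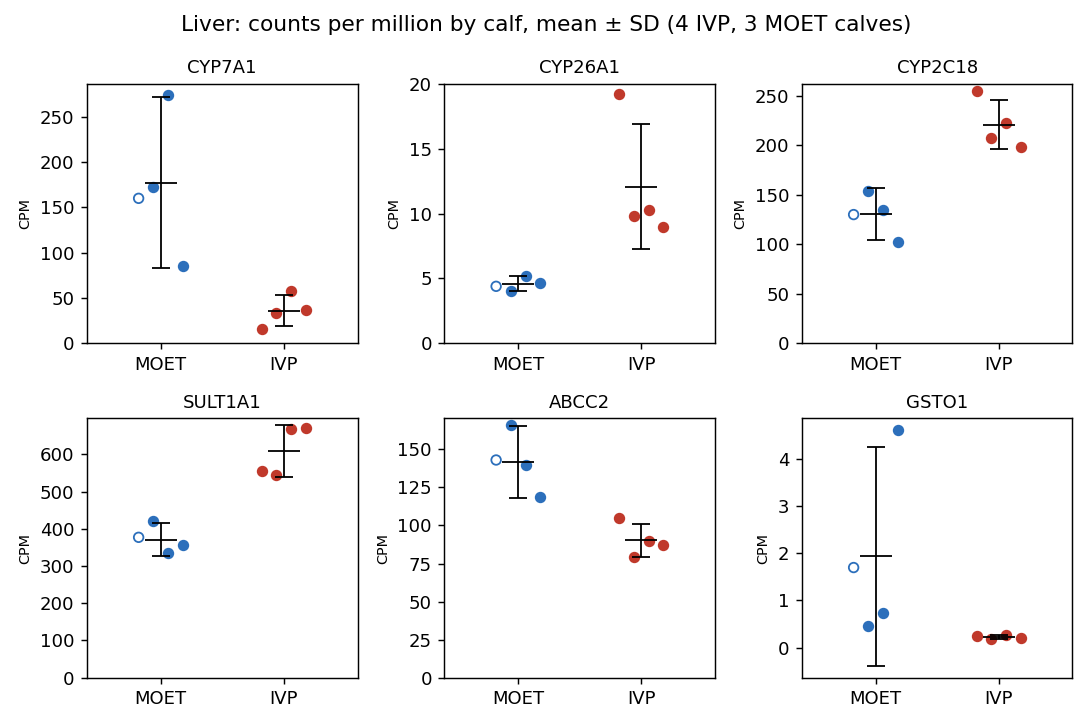
Liver CPM by calf of 6 members, with a linear axis per gene; bars are the mean ± SD of 4 IVP and 3 MOET calves and open circles are MOET calf 3213, which is not in the mean. The groups do not overlap in any of the 6 genes, and the GSTO1 mean of MOET calves rests on calf 5932 at 4.62 CPM.

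The conjugating enzymes went both ways. SULT1A1 was higher in IVP livers, at 554, 545, 669 and 670 CPM against 421, 335 and 357 CPM, with 377 CPM in calf 3213 (log2 fold change 0.71, SE 0.15, FDR = 0.125). GSTK1 was higher as well, at 164, 176, 178 and 212 CPM against 119, 131 and 130 CPM, with 129 CPM in calf 3213 (log2 fold change 0.52, SE 0.13, FDR = 0.125). In both genes the lowest IVP calf was above the highest MOET calf. GSTA2 was 466, 365, 561 and 572 CPM against 422, 387 and 280 CPM, and the groups overlapped through IVP calf 3209 (log2 fold change 0.42, SE 0.21, FDR = 0.199).

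UGT3A2 and SULT1B1 were at the lower side in IVP livers. UGT3A2 stood at 58, 50.7, 62.1 and 69.4 CPM against 84.5, 69.1 and 82.6 CPM, with calves 5841 and 3218 almost level (log2 fold change -0.40, SE 0.14, FDR = 0.129). SULT1B1 stood at 27.8, 26.8, 32.1 and 16.3 CPM against 32.6, 34.9 and 32.9 CPM, and calf 3213 at 32 CPM was just under the highest IVP calf (log2 fold change -0.36, SE 0.21, FDR = 0.255). IVP calf 5841 had the lowest SULT1B1 value and, among IVP calves, the highest UGT3A2 value.

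GSTO1, the omega-class transferase that reduces rather than conjugates, had the largest fold change of the set in liver, with between 4 and 121 counts per library behind it. It stood at 0.246, 0.174, 0.272 and 0.197 CPM in IVP livers and at 0.457, 0.735 and 4.62 CPM in MOET livers, with 1.7 CPM in calf 3213. Its log2 fold change was -3.07 (SE 0.83, FDR = 0.125), and without MOET calf 5932 it was -1.40 (FDR = 0.316). The same calf held 10.1 CPM in muscle, where the other 3 MOET calves were at 0, 0.0419 and, for calf 3213, 1.45 CPM, and the 4 IVP calves at 0, 0.17, 0 and 0 CPM. Of the 7 calves other than 3213, GSTO1 was thus above 1 CPM in both organs of calf 5932 and below it in both organs of the other 6.

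The aldehyde dehydrogenases were both lower in IVP livers. ALDH5A1 stood at 46.1, 28.9, 37.5 and 21 CPM against 67.7, 49 and 77.8 CPM, with 62.3 CPM in calf 3213 (log2 fold change -0.93, SE 0.26, FDR = 0.125). ALDH6A1 stood at 295, 210, 259 and 78.8 CPM against 468, 346 and 420 CPM, with 337 CPM in calf 3213 (log2 fold change -0.93, SE 0.37, FDR = 0.145). Groups were apart in both genes. IVP calf 5841 had the lowest value in each. Over the 30 members it was the lowest of the 4 IVP calves in 14 and the highest in 9. IVP calf 3208 was the lowest in 3 and the highest in 14, calf 3209 in 7 and 2, and calf 5833 in 6 and 5. The same shares over all genes were not computed.

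All 13 ABC transporters compared in liver had a negative log2 fold change (median -0.42), where 50.3% of all genes did; ABCA3, at -0.01, turned just above 0 with another scaling. The 17 enzymes were split, 10 positive and 7 negative (median 0.04). Of the 13 transporters, 5 had no overlap between the groups (ABCA1, ABCA5, ABCC2, ABCC9 and ABCC10), and the same 5 had an unadjusted p under 0.05. These 5, with ABCC5 and ABCC11, have their symbol through the study's liver expression or combined tables, selected on these libraries. The 13 are therefore not a like sample to set beside all genes. ABCA3, ABCA4, ABCA6, ABCA7, ABCB9 and ABCG1, not named that way, had log2 fold changes between -0.93 and -0.01, none at an unadjusted p under 0.05. The difference between transporters and enzymes was not tested.

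ABCA1, which loads cholesterol and phospholipid onto APOA1, stood at 22, 14.7, 11.9 and 7.86 CPM in IVP livers and at 54.9, 32.2 and 46.6 CPM in MOET livers, with 40.6 CPM in calf 3213. The means were 14.1 ± 5.98 CPM (SD, n = 4) and 44.6 ± 11.4 CPM (SD, n = 3), a log2 fold change of -1.63 (SE 0.32, FDR = 0.125). ABCC9 stood at 3.89, 1.69, 1.91 and 1.18 CPM against 9.35, 4.33 and 6.49 CPM, with 6.04 CPM in calf 3213 (log2 fold change -1.60, SE 0.40, FDR = 0.125). IVP calf 3208 came closest to the MOET calves in both genes, and without it the log2 fold changes were -1.94 and -2.06, with an FDR of 0.0430 for both.

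ABCC2 stood at 105, 79.2, 89.5 and 87 CPM in IVP livers against 166, 140 and 119 CPM, with 143 CPM in calf 3213 (log2 fold change -0.66, SE 0.15, FDR = 0.125). ABCA5 stood at 40.1, 43.1, 37.3 and 34.6 CPM against 59, 49.7 and 51.9 CPM, with 53.8 CPM in calf 3213 (log2 fold change -0.46, SE 0.12, FDR = 0.125). ABCC10, which exports drugs, stood at 13.8, 13.4, 12.7 and 12 CPM against 19.9, 16.6 and 15.5 CPM, with 17.5 CPM in calf 3213 (log2 fold change -0.42, SE 0.13, FDR = 0.127). ABCC2, ABCA5 and ABCC10 were 1.58-fold, 1.38-fold and 1.33-fold lower in IVP livers, and each IVP calf was below each MOET calf.

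The other transporters overlapped between the groups in liver. ABCA6, from the same ABCA group as ABCA5, stood at 99.8, 84.8, 98.9 and 50.9 CPM against 122, 107 and 94.7 CPM (log2 fold change -0.35, SE 0.23, FDR = 0.306). ABCC5, an exporter of cyclic nucleotides, stood at 187, 160, 153 and 115 CPM against 187, 170 and 146 CPM (log2 fold change -0.11, SE 0.18, FDR = 0.681). ABCG1, which exports cholesterol to lipoproteins, stood at 0.737, 0.521, 0.545 and 0.197 CPM against 1.29, 0.612 and 1.07 CPM (log2 fold change -0.93, SE 0.42, FDR = 0.173). ABCA3, ABCA4, ABCA7, ABCB9 and ABCC11 had log2 fold changes between -0.64 and -0.01, with FDR between 0.221 and 0.971.

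Sums of named marker genes of several cell types lay apart between the groups in liver as well, and no marker passed the FDR. A marker could be named only through the study's gene tables, which were selected for differences between these same calves. That the sums lay apart is therefore not an independent result. The 2 named hepatocyte genes of 8 listed, APOA1 and TTR, summed to between 6353 and 9021 CPM in IVP livers and between 3984 and 4845 CPM in the 3 MOET livers. The 2 named macrophage genes of 6, C1QA and C1QB, summed to between 960 and 1817 CPM against 692 to 888 CPM. The 4 named fibroblast and stellate cell genes of 6 (COL1A1, COL1A2, COL3A1, DCN) summed to between 499 and 660 CPM against 794 to 843 CPM, and the 2 named endothelial genes of 6, CDH5 and VWF, to between 76.9 and 95.1 CPM against 99.7 to 125 CPM. Taken singly, CDH5, VWF and DCN overlapped between the groups, and DCN had a log2 fold change of -0.001 (SE 0.14, FDR = 0.996). Hepatocyte and macrophage sums were thus higher and fibroblast and endothelial sums lower in IVP livers, and their part in the results on the members was not tested. In bulk tissue, fewer cells of a type and less RNA per cell cannot be told apart.

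Of the wider pathway, 37 genes could be named (regulators, other phase I and II enzymes, haem synthesis and electron donors, makers of conjugation substrates, SLC carriers and soluble ABC proteins), all of them compared in liver. The names come only from the study's gene tables, selected for differences between these same calves, so the 37 are not an independent sample. None passed the FDR in liver. A positive log2 fold change was found in 22 and a negative one in 15, where 50.3% of all genes had a negative one. NR0B2, the small heterodimer partner that represses bile acid synthesis, stood at 44.2, 26.8, 26.2 and 44.7 CPM in IVP livers and at 8.19, 15.4 and 17.1 CPM in MOET livers, with 13.3 CPM in calf 3213 (log2 fold change 1.37, SE 0.31, FDR = 0.125). AKR1D1, a reductase of bile acid synthesis, stood at 48.5, 42.7, 54.6 and 20.1 CPM against 93.1, 85.4 and 93.4 CPM, with 81.4 CPM in calf 3213 (log2 fold change -1.10, SE 0.28, FDR = 0.125). In both genes the groups did not overlap, with NR0B2 high and AKR1D1 low in IVP livers beside the low CYP7A1. Over all genes, IVP calves lay above the 3 MOET calves in 16.3% and below them in 16.7%.

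Of the 7 named regulators of the drug-metabolizing genes, 0 passed the FDR in liver, and 4 had a positive and 3 a negative log2 fold change. At an unadjusted p under 0.05 there was 1 higher, against 14.8% of all genes, and 3 lower, against 15%. AHR, the receptor for dioxins and plant indoles, stood at 31.7, 18.8, 22.7 and 9.83 CPM in IVP livers against 69.1, 45.9 and 52.1 CPM, with 49.8 CPM in calf 3213 (log2 fold change -1.39, SE 0.33, FDR = 0.125). Its partner ARNT had -0.89 (SE 0.27, FDR = 0.126) and the fatty acid receptor PPARA -0.99 (SE 0.23, FDR = 0.125). NR1I3, the constitutive androstane receptor, had 0.30 (SE 0.15, FDR = 0.204) and RXRA 0.10 (SE 0.14, FDR = 0.636). ALAS1, the first enzyme of haem synthesis, stood at 188, 208, 197 and 195 CPM against 270, 327 and 370 CPM, with 327 CPM in calf 3213 (log2 fold change -0.71, SE 0.14, FDR = 0.125). In AHR, ARNT, PPARA and ALAS1 all 4 IVP calves lay below the 3 MOET calves, as in 16.7% of all genes.

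In muscle, 18 members could be compared. None passed the FDR in edgeR's test with age, where 60 of 12854 genes did (0.467%). At an unadjusted p under 0.05 there were 6 members higher in IVP calves, against 11.4% of all genes, and 1 lower, against 8.43%. All 4 IVP calves lay above the 3 MOET calves in 2 members, against 10.4% of all genes, and below them in 1, against 8.66%. DESeq2 with age called 1, CYP21, and 468 of all genes. Without age it called ABCA1, ALDH5A1 and CYP21, and 1619 of all genes. The edgeR fit without age called ABCA3, ALDH5A1 and CYP21, and 1174 of all genes. Of the 18, 12 had a positive and 6 a negative log2 fold change, and of the 10 transporters 8 were positive (median 0.21), where 52.3% of all genes were.

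CYP21, the steroid hydroxylase of cortisol synthesis, stood at 2, 2, 1.86 and 0.995 CPM in IVP muscles and at 2.21, 4.32 and 8.23 CPM in MOET muscles, with 4.73 CPM in calf 3213. The gap between the highest IVP calf and MOET calf 3217 was small, and MOET calf 5932 carried the high end. The log2 fold change was -1.50 (SE 0.39, FDR = 0.0944), and it was -0.91 (FDR = 0.238) without calf 5932 and -0.70 (FDR = 0.352) in the 4 calves with the same parents. ABCA3, the phospholipid transporter of surfactant, stood at 3.64, 3.37, 4.62 and 4.2 CPM against 2.42, 3.02 and 2.99 CPM, with 2.77 CPM in calf 3213 (log2 fold change 0.49, SE 0.17, FDR = 0.161). Both genes have their symbol through the study's table of muscle methylation and expression combined, as do ABCA7, ABCB9 and GSTA2.

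ALDH5A1 was the third member without overlap in muscle, at 5.97, 5.24, 6.73 and 7.52 CPM in IVP calves and 5.12, 3.94 and 4.15 CPM in MOET calves, with 4.35 CPM in calf 3213 (log2 fold change 0.52, SE 0.17, FDR = 0.138). ABCA1 stood at 0.818, 1.32, 2.04 and 0.995 CPM against 0.875, 0.419 and 0.486 CPM (log2 fold change 1.14, SE 0.39, FDR = 0.155), and ABCC9 at 12.9, 14.7, 10.3 and 13.3 CPM against 10, 10.1 and 10.3 CPM (log2 fold change 0.33, SE 0.13, FDR = 0.201). In each of these 2 transporters 1 IVP calf reached into the MOET range. ABCB9 stood at 1.92, 3.11, 1.53 and 1.29 CPM against 2.33, 3.27 and 2.58 CPM (log2 fold change -0.47, SE 0.29, FDR = 0.387).

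Marker sums in muscle also lay apart for some cell types, and no marker passed the FDR. These markers, too, could be named only through the study's gene tables, selected for differences between these same calves. Of the 4 named fibre genes 2 had a positive and 2 a negative log2 fold change. The slow myosin MYH7 lay between 4998 and 14722 CPM against 1862 to 3884 CPM (log2 fold change 1.65, SE 0.40, FDR = 0.0846), and MYH2, a fast myosin, had 0.79 (SE 0.23, FDR = 0.112), while ACTA1 had -0.29 (SE 0.32, FDR = 0.645) and TNNT3 -0.37 (SE 0.25, FDR = 0.417). The 4 genes summed to between 105954 and 139240 CPM (median 116829) in IVP muscles and 122032 to 140154 CPM (median 132032) in MOET muscles. The 4 named fibroblast genes summed to between 808 and 1153 CPM in IVP muscles and 1295 to 1624 CPM in MOET muscles, the endothelial genes to between 85.2 and 139 CPM against 71.8 to 79.1 CPM, and the macrophage genes to between 11 and 32.1 CPM against 15 to 21.1 CPM. The hepatocyte sum was between 3.17 and 36.8 CPM against 0.972 to 2.47 CPM, with TTR at 34.1 CPM in IVP calf 3209, while CYP2C18 and CYP7A1 had 0 counts in every muscle. Taken singly, VWF and APOA1 overlapped between the groups in muscle. The part of the muscle markers in the results on the members was not tested.

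Of the 17 members compared in both organs, 12 had log2 fold changes of opposite signs, a share near the 62.9% of the 12007 genes compared in both organs. They were 9 that were negative in liver and positive in muscle, against 32.4% of those genes, and 3 the reverse, against 30.5%. The difference of the IVP effect between the organs, tested in 1 fit over all 16 libraries, was called for 3 of the 17, ABCA1, ABCC9 and ALDH5A1, where 10.8% of those 12007 genes were called. In all 3 the effect was higher in muscle than in liver, as in 5.62% of those genes. All 3 have their symbol through the study's table of liver expression.

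ABCA1 had the largest difference (muscle minus liver log2 fold change 2.75, SE 0.56, FDR = 0.0264), followed by ABCC9 (1.90, SE 0.43, FDR = 0.0331) and ALDH5A1 (1.42, SE 0.33, FDR = 0.0340). In liver all IVP calves were below the 3 MOET calves in each gene. In muscle they were above them in ALDH5A1, and in ABCA1 and ABCC9 1 IVP calf lay inside the MOET range. With the calf as a block, the difference was called for 713 of all 15237 genes fitted in place of 1370, and these 3 remained among them, at FDR = 0.0274, 0.0401 and 0.0409. The difference was not called for any of the 3 without IVP calf 3209 or 5833 or without MOET calf 3217, 3218 or 5932, where FDR lay between 0.0567 and 0.181, nor in the 4 calves with the same parents (FDR between 0.14 and 0.198). Its sign was the same in all 15 alternatives for each of the 3 genes.

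CYP2D14 (-0.65, SE 0.21, FDR = 0.0588), SULT1A1 (-0.64, SE 0.22, FDR = 0.0736) and CYP20A1 (-0.52, SE 0.19, FDR = 0.0905) had differences of the other sign and did not pass. SULT1A1 in muscle was 13.1, 15.8, 19.6 and 15.2 CPM in IVP calves and 17.1, 12.8 and 14.6 CPM in MOET calves, and the groups overlapped. GSTK1 alone of the 17 was higher in IVP calves of both organs with an unadjusted p under 0.05 in each, with log2 fold changes of 0.52 (SE 0.13) in liver and 0.34 (SE 0.15, FDR = 0.245) in muscle. Its groups overlapped in muscle, at 16.4 to 25.7 CPM in IVP calves and 14.4 to 17.7 CPM in MOET calves. GSTK1 has its symbol through the study's table of liver expression, and the share of all genes with this pattern was not counted.

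**Figure D4:**
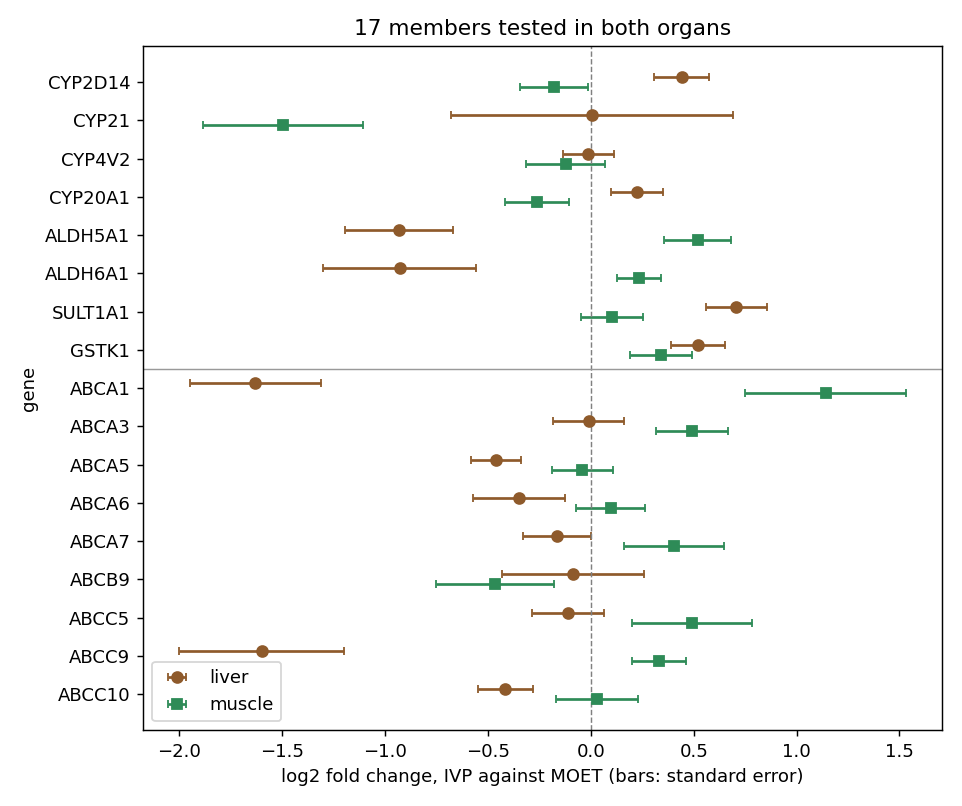
Log2 fold change of IVP against MOET calves with its standard error for the 17 members compared in both organs, in liver (circles) and muscle (squares). ABCA1, ABCC9 and ALDH5A1 lie left of 0 in liver and right of 0 in muscle, and CYP21 lies far from 0 in muscle alone.

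**Figure D5:**
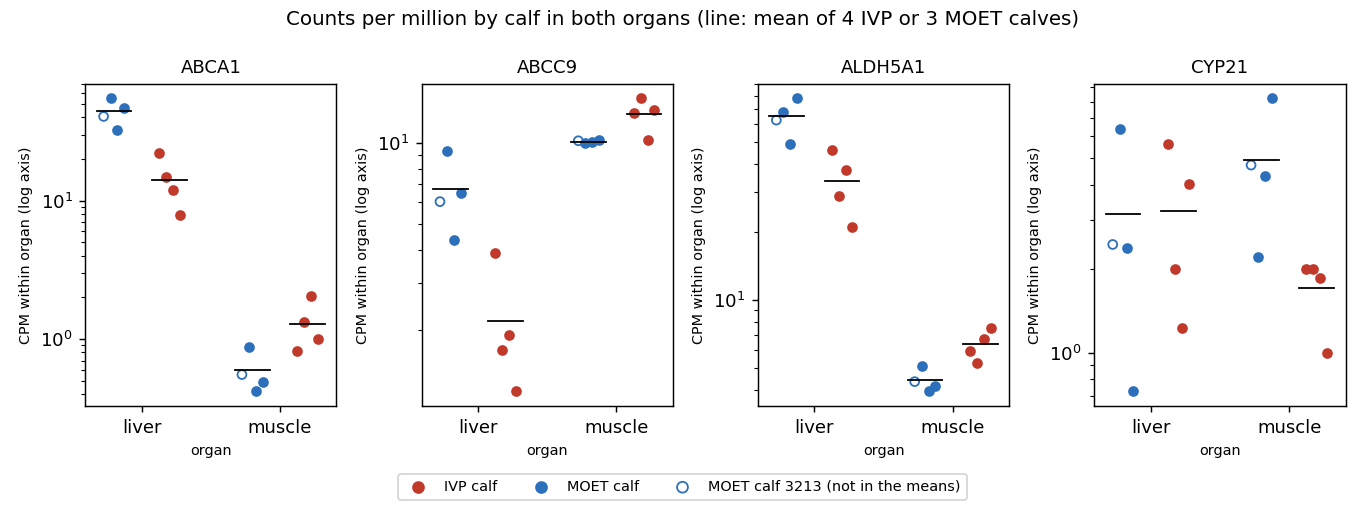
CPM by calf, scaled within each organ, on a log axis for ABCA1, ABCC9, ALDH5A1 and CYP21 in liver and muscle, IVP calves in red and MOET calves in blue, with open circles for MOET calf 3213 and lines at the mean of 4 IVP or 3 MOET calves. IVP points are below MOET points in liver and mostly above them in muscle for the first 3 genes, and CYP21 overlaps in liver and is apart in muscle.

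The pathway genes gave the same kind of comparison. In muscle, 24 of the 37 could be compared and 1 was called, where 60 of 12854 genes were (0.467%). This gene, ALAS1, stood at 104, 99.4, 118 and 131 CPM in IVP calves against 69.6, 60.3 and 51.5 CPM in MOET calves, with 60 CPM in calf 3213 (log2 fold change 0.89, SE 0.14, FDR = 0.0272). It was not called without IVP calf 5841 or MOET calf 3217, 3218 or 5932 (FDR between 0.0514 and 0.182), nor in the 4 calves with the same parents (FDR = 0.116). Since ALAS1 was on the lower side in IVP livers, its muscle minus liver difference was 1.56 (SE 0.20, FDR = 0.0152). The difference was also called for AHR (2.51, SE 0.50, FDR = 0.0264), PPARA (1.59, SE 0.30, FDR = 0.0250) and ARNT (1.07, SE 0.32, FDR = 0.0482), and in the other direction for UROD (-0.86, SE 0.21, FDR = 0.0346) and PPOX (-0.76, SE 0.21, FDR = 0.0400) of haem synthesis, the glutathione synthetase GSS (-0.86, SE 0.23, FDR = 0.0405) and the microsomal transferase MGST3 (-0.72, SE 0.21, FDR = 0.0458). AHR stood at 1.96, 1.87, 3.64 and 2.51 CPM in IVP muscles and at 1.21, 0.797 and 1.38 CPM in MOET muscles, with 1.02 CPM in calf 3213, the reverse of its order in liver. Of the 24 pathway genes, 4 were called in each direction, where 10.8% of the 12007 genes compared in both organs were called. The endothelial marker CDH5 had a called difference as well (1.01, SE 0.26, FDR = 0.0370), and its part in these results was not tested. Of these 9 differences, 5 were called with the calf as a block (AHR, ALAS1, CDH5, PPARA and UROD), 1 (ALAS1) without IVP calf 3209 or 5833 or without MOET calf 3217, and 0 without MOET calf 3218 or 5932 or in the 4 calves with the same parents.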

How the data were processed

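RNA-seq read pairs were filtered with SOAPnuke, aligned to the bosTau9 assembly with STAR (version 2.7) and counted per Ensembl gene with HTSeq-count by the authors, who then removed the effect of age with sva by a model not given in the sources used here. The deposited values are whole numbers and were treated as estimated counts (already whole, so rounding changed none). No sequence or gene length was used, since no genome of this build was given.

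Genes were kept with filterByExpr of edgeR (version 4.0.16, minimum count 10, minimum total 15) and libraries scaled by TMM, within an organ or, to compare organs, over all 16 libraries. IVP and MOET calves were compared in each organ by edgeR's quasi-likelihood test, with the age of the calf in days in the model, over all genes that passed, with Benjamini-Hochberg adjustment (FDR) at 0.05. Organs were compared with the calf as a block. The difference of the IVP effect between organs was tested in 1 fit over 16 libraries with age. That fit and its FDR cover 15237 genes, and members and shares are given for the 12007 genes that passed in both organs. DESeq2 (version 1.42.0), another scaling, no filter, no age term, the 4 calves with the same parents and each calf left out were alternatives. R 4.3.3, Python 3.11.15 and matplotlib 3.10.9 were used. When 200 genes of simulated data were given a log2 change of 1, the liver fit called 112 of them, the muscle fit 180, the comparison of organs 171 and the test of the IVP effect between organs 46.

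The calf pairs the organs by design, and the correlation of a calf's deviations in both organs was between -0.0934 and 0.178 (median 0.0978), above 0.1 in 4 of 8 calves. Members and lists were chosen with earlier results of these data known. Values per calf are given for members called in a comparison of IVP and MOET, members whose groups do not overlap, and the most abundant member of each family; CYP2C87, ABCA1 in muscle, ABCC9 in muscle, UGT3A2 and the pathway genes were added after their values were seen. Paralogs such as the CYP2C, CYP2D, GSTA and SULT1A genes, and overlapping genes, could share or lose reads.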

Additional observations from a re-analysis of the deposited data

Results flagged for a closer look

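Among 48 sets of 4 IVP calves, 1 per member and organ compared, 3 held a calf far from the other 3 by Dixon's criterion, and chance alone flags about 1 in 20 such sets. In liver, CYP26A1 was 19.3 CPM in IVP calf 3208, and the other IVP calves lay between 8.99 and 10.3 CPM. In muscle, ABCA6 was 10.4 CPM in IVP calf 5833 against 7.32 to 7.81 CPM in the others, and CYP21 was 0.995 CPM in IVP calf 5841 against 1.86 to 2 CPM in the others.

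For 3 members the IVP effect differed between the organs by a test of the difference itself (edgeR's quasi-likelihood test, 16 libraries). The muscle minus liver log2 difference was 2.747 for ABCA1 (FDR = 0.0264), 1.901 for ABCC9 (FDR = 0.0331) and 1.416 for ALDH5A1 (FDR = 0.0340). In liver all 4 IVP calves were below the 3 MOET calves in each of the 3 genes.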

How the results depend on the processing

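Over all genes, the number called between IVP and MOET calves moved with the setting. In liver it was 5, and it was 17 without the low-count filter, 1588 and 4657 with DESeq2 with and without age, 2998 in edgeR without age, 19 in the 4 calves with the same parents and between 1 (without IVP calf 3209 or any of MOET calves 3217, 3218 and 5932) and 2187 (without MOET calf 3213) with 1 calf left out. In muscle it was 60, and under the same settings 186, 468, 1619, 1174 and 21, and between 6 (without MOET calf 3218) and 350 (without IVP calf 3209). For the difference between the organs it was 1370, and it was 2637 with DESeq2, 4050 without age, 4 in the calves with the same parents and between 0 (without MOET calf 3218 or 5932) and 2514 (without IVP calf 3208). With the calf as a block to respect the pairing of the organs it was 713, and ABCA1, ABCC9 and ALDH5A1 were called with and without the block. Calf 3213, whose counts lie at the mean of its group, is 1 of the replicates in the fits without age. The cause of the shifts in these numbers was not tested.

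Members lower in muscle of IVP calves were 6, and 11 without the filter, where more members are tested. ABCC10, not called between the organs, had a log2 difference of -0.1431 (FDR = 0.0490) in MOET calves alone. That fit takes calf 3213, whose counts lie at the mean of its group, as a full replicate. Counts of members higher and lower otherwise stayed within 1.5 times of those given. Leaving out calf 3213 together with the age term, 0 members were called in either organ. With 4 IVP and 3 distinct MOET calves of different parents, an effect of embryo origin and one of parents cannot be told apart outside the 4 calves that share them.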

Other observations

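Other enzymes and carriers of the liver, outside the families described above, were also split. GLYAT, which conjugates acids with glycine, stood at 937, 1189, 967 and 1711 CPM in IVP livers (calves 3208, 3209, 5833 and 5841) and at 665, 701 and 553 CPM in MOET livers (calves 3217, 3218 and 5932), with no overlap (log2 fold change 0.88, SE 0.23, FDR = 0.125 by edgeR). SLC22A7, an uptake carrier of organic anions, stood at 304, 328, 272 and 362 CPM against 172, 228 and 182 CPM, also with no overlap (log2 fold change 0.70, SE 0.16, FDR = 0.125). The flavin monooxygenases FMO1 and FMO4 were on the lower side, with log2 fold changes of -0.47 (SE 0.14, FDR = 0.125) and -0.68 (SE 0.20, FDR = 0.126). Of the 15 named enzymes of this kind, 10 had a positive and 5 a negative log2 fold change, and of the 6 named SLC carriers 2 and 4. None passed the FDR in liver.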
